A study of Mus musculus with 12 samples.

Results

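The AP-1 transcription factors described here are 10 genes, taken by name from the 54532 genes of the authors' count table. They are Fos, Fosb, Fosl1 and Fosl2 of the Fos family, Jun, Junb and Jund of the Jun family, and Atf3, Batf3 and Maff, which belong to neighbouring branches of the basic leucine zipper (bZIP) proteins. All 10 were found and all 10 passed the filter on low counts, as did 14547 genes in all. RNA was sequenced from splenic eosinophils, granulocytes of type 2 immunity, sorted as SSChigh4get+ cells from IL-5tg_4get/C57BL/6 mice. Every group thus carried the IL-5 transgene, which drives eosinophilia, and the 4get allele, which labels IL-4-producing cells with GFP; for the transgene's promoter and the mice's age nothing is given in the sources used here. Cells were cultured for 4 h with both stimuli together (anti-Siglec-F plus IL-33), with IL-33 at 10 ng/mL, with the anti-Siglec-F antibody E50-2440 at 5 µg/mL, or with a rat IgG2a isotype control. Whether cells given IL-33 alone also received the isotype antibody is not stated. Each of the 4 groups had 3 libraries. The labels do not say whether these came from separate mice or cultures, so the p-values reflect the spread among these libraries alone, and that spread may be technical.

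AP-1 is a dimer that binds DNA through paired bZIP domains. Jun proteins pair with each other or with Fos proteins, while Fos proteins need a partner; JunB is often a weaker activator than c-Jun, and JunD is made in many resting cells. Atf3 and Batf3 pair with Jun proteins, Batf3 also acts with interferon regulatory factors, and Maff is a small Maf protein that lacks a transactivation domain and pairs with CNC factors such as Nrf2. IL-33 signals through the receptor ST2 and the adaptor MyD88 to NF-kB and to MAP kinases, which raise the transcription of AP-1 genes and phosphorylate their products. Siglec-F is a sialic acid-binding receptor of mouse eosinophils with inhibitory motifs in its cytoplasmic tail.

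Total counts ran from 11686603 to 17137988 per library. Eosinophil markers were detected throughout, with a summed level of 5064 to 14577 CPM (a gene's counts as a rate within its library, scaled by TMM). In the combined group, libraries 2 and 3 differed from the rest: genes with a count numbered 15555 and 29990, against 19138 to 24485 elsewhere, and ribosomal protein genes took 3.08% and 3.57% of counts, against 1.52% to 2.43%. IL-33 library 3 gave the lowest value of its group for 9 of the 10 members, with a median deviation of -0.70 log2 units from the group mean. Combined library 2 gave the lowest value of its group for 7 members, with a median deviation of -0.43. The members' values in these libraries are named wherever a result rests on them.

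Promoters of 9 members were found in the RefSeq table (build GRCm38.p6), and the 250 bases before each start were searched on both strands. Fosl1 had no entry there, so its promoter was not searched. The windows below are shown because they hold letters that bZIP dimers can bind: those of Atf3 and Maff, which were called higher, and those of Jun and Fos, which were not called. Capitals mark TGACGTCA (the cAMP response element, CRE), its core TGACGT, the variant TGACATCA and a match to the NF-kB consensus. The core and the variant were chosen after the promoters were seen.
Jun, chr4:95052230-95052297, minus strand: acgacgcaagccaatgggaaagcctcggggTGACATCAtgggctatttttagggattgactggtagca
Maff, chr15:79348302-79348394, plus strand: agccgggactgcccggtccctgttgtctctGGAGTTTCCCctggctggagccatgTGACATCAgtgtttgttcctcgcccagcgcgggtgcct
Maff, chr15:79347461-79347519, plus strand: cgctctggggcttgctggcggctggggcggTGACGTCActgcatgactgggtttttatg
Atf3, chr1:191183334-191183371, minus strand: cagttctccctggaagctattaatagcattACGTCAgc
Fos, chr12:85473794-85473859, plus strand: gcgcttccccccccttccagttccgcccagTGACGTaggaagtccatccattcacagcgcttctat

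TGACATCA lay 45 to 38 bases before the start in Jun and, at the same distance, before one of the Maff starts. It occurred in 2 of the 11 member starts and in 2.93% of 32851 starts of all genes. TGACGTCA lay 29 to 22 bases before another Maff start and occurred in 1.55% of all starts. The core TGACGT, which also lies inside TGACGTCA, occurred in 3 member starts (Atf3 on the reverse strand, Fos and Maff) and in 6.47% of all starts. Matches to the NF-kB consensus, by name, were found in 4 member starts (Fos, Fosb, Fosl2 and Maff) and in 3.90% of all starts. The canonical AP-1 site TGACTCA and the CArG box, the site of serum response factor, were in none of the 11 member windows, and in 4.46% and 1.47% of all starts. A match is a description of the letters, and its absence says only that they are not in this window.

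**Figure D1:**
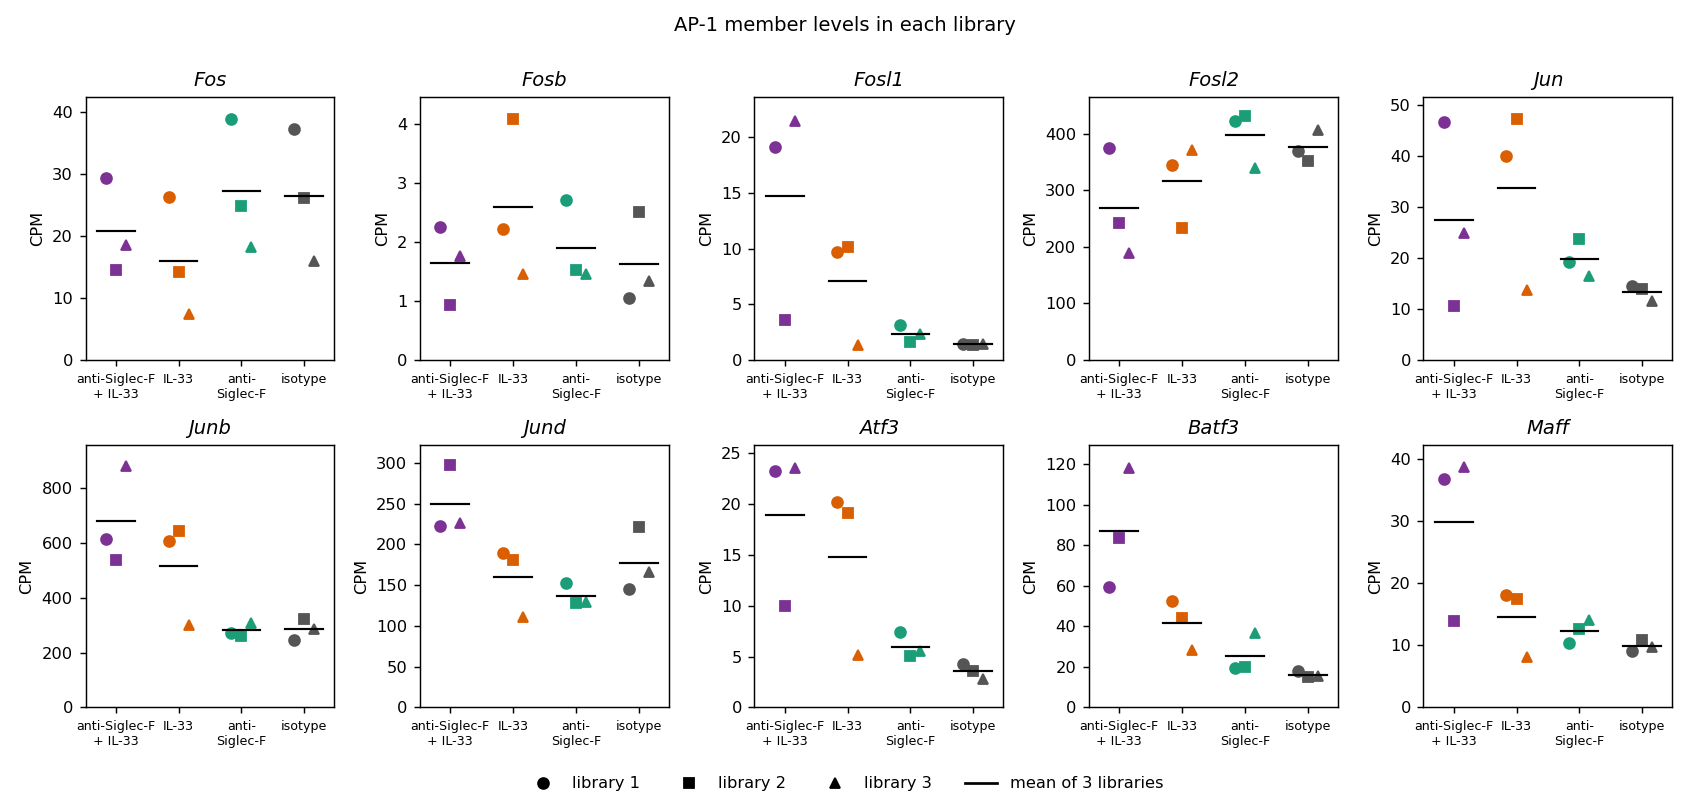
Level of each member in CPM (vertical axes, each from 0) in the 12 libraries, by group; symbols give the library number and lines the mean of 3 libraries. Batf3 lay at 59.3 to 118.2 CPM with both stimuli and at 15.1 to 17.9 CPM with isotype, and the low symbols of IL-33 library 3 and combined library 2 recur in most panels.

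Levels of different genes were compared per length, in TPM, computed here from the counts and the gene lengths of the authors' table. With isotype the order was Junb (426 ± 42.9 TPM, SD, n = 3), Jund (365 ± 62.2), Fosl2 (134 ± 15.2), Fos (38.8 ± 16.2), Batf3 (34.9 ± 4.45), Jun (14.4 ± 1.64), Maff (13.1 ± 0.598), Atf3 (5.70 ± 1.18), Fosl1 (2.82 ± 0.242) and Fosb (0.887 ± 0.377). Neighbouring genes in that order overlapped between libraries for Junb and Jund, for Fos and Batf3, and for Jun and Maff, and did not overlap at the other steps. Unstimulated eosinophils thus held mostly Junb, Jund and Fosl2 messages. With both stimuli Junb (704 ± 95.4 TPM) and Jund (372 ± 116) still led, and Batf3 came next at 128 ± 13.8 TPM, above Fosl2 at 72.5 ± 41.2 TPM, although these last 2 overlapped in TPM. Maff, Fos, Jun, Atf3 and Fosl1 then followed between 27.9 and 20.7 TPM, with overlapping libraries, and Fosb was last at 0.665 ± 0.376 TPM. TPM values order the genes within a group and were not TMM-scaled, so a gene's change between groups is read from CPM. In CPM, Fosl2 averaged 268 with both stimuli and 376 with isotype, and Jund 249 and 178.

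The joint effect of the antibody and IL-33 was read from both stimuli against isotype. Fosl1, Junb, Atf3, Batf3 and Maff rose, so 5 of 10 members were called higher at a Benjamini-Hochberg adjusted p under 0.05 in edgeR's quasi-likelihood test, against 5.47% of the 14547 genes tested. No member was called lower, against 4.41% of genes. The median log2 fold change of the 10 members was 1.14, and that of all tested genes -0.05. For 6 members, these 5 and Jund, every combined library lay above every isotype library, which was so for 12% of tested genes. In bulk samples, more RNA per cell and more cells of a type cannot be told apart.

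The effect of IL-33 without Siglec-F engagement was read against isotype. Atf3 and Batf3 rose, 2 of 10 members, against 1.46% of genes called higher. The same 2 members lay above isotype in every library, against 11% of genes. The median log2 fold change was 0.76 for the members and -0.01 for all tested genes. Whether same-numbered libraries belong together is not stated. In these 2 groups their deviations from the group means correlated weakly (0.23, 0.22 and 0.16). A block by library number thus assumes a pairing read from these same data. With a replicate block and only these 2 groups, an alternative added after the data were seen, 6 members were called: Fosl1, Jun, Junb, Atf3 and Batf3 higher (adjusted p = 0.0358, 0.0190, 0.0470, 0.00482 and 0.00150) and Fos lower (adjusted p = 0.0189), against 9.08% of 13597 genes in either direction.

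Both stimuli against the antibody alone asked what IL-33 added to Siglec-F engagement. Fosl1, Junb, Jund, Atf3 and Batf3 rose, 5 of 10 members, against 2.7% of genes; none was lower, against 1.72% of genes. These 5 lay above the antibody group in every library, against 10% of genes. The median log2 fold change was 1.07 for the members and -0.04 for all tested genes.

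The antibody alone against isotype asked what Siglec-F engagement changed without IL-33. In edgeR 0 members were called and 0% of the tested genes were. At an unadjusted p under 0.05 there was 1 of 10 members, Batf3, and there were 370 of 14547 genes. DESeq2 and limma voom called 0 members each, and 0.0825% and 0.0687% of genes. For Fosl1, Jun, Atf3 and Batf3 all 3 antibody libraries lay above all isotype libraries, 4 of 10 members, against 6.73% of tested genes. Their log2 fold changes were 0.76, 0.57, 0.75 and 0.66, with 95% intervals from -0.78 to 2.31, from -0.43 to 1.57, from -0.24 to 1.73 and from 0.01 to 1.31. The intervals allow no change for the first 3 and changes of over 2-fold for all 4.

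The antibody's effect in the presence of IL-33 was read from both stimuli against IL-33. That contrast includes any effect the antibody has without IL-33. In edgeR 0 members were called, and 0% of genes. At an unadjusted p under 0.05 there were 3 of 10 members, Jund, Maff and Batf3, and 2526 of 14547 genes. DESeq2 called 1 member, Batf3 (adjusted p = 0.0304), and 3.23% of genes, and limma voom 0 members and 0% of genes. For Jund and Batf3 all combined libraries lay above all IL-33 libraries, 2 of 10 members, against 6.98% of genes. Whether Siglec-F engagement changed the response to IL-33 was read from the interaction. The interaction takes the antibody's effect in unstimulated cells from its effect in IL-33-treated cells. It called 0 members in edgeR and 0% of genes, with 1 of 10 members (Jund) and 1150 of 14547 genes at an unadjusted p under 0.05. DESeq2 and limma voom called 0 members, and 0.0206% and 0% of genes. Comparisons with isotype share the same 3 isotype libraries, and those of the combined group share its 3 libraries.

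**Figure D2:**
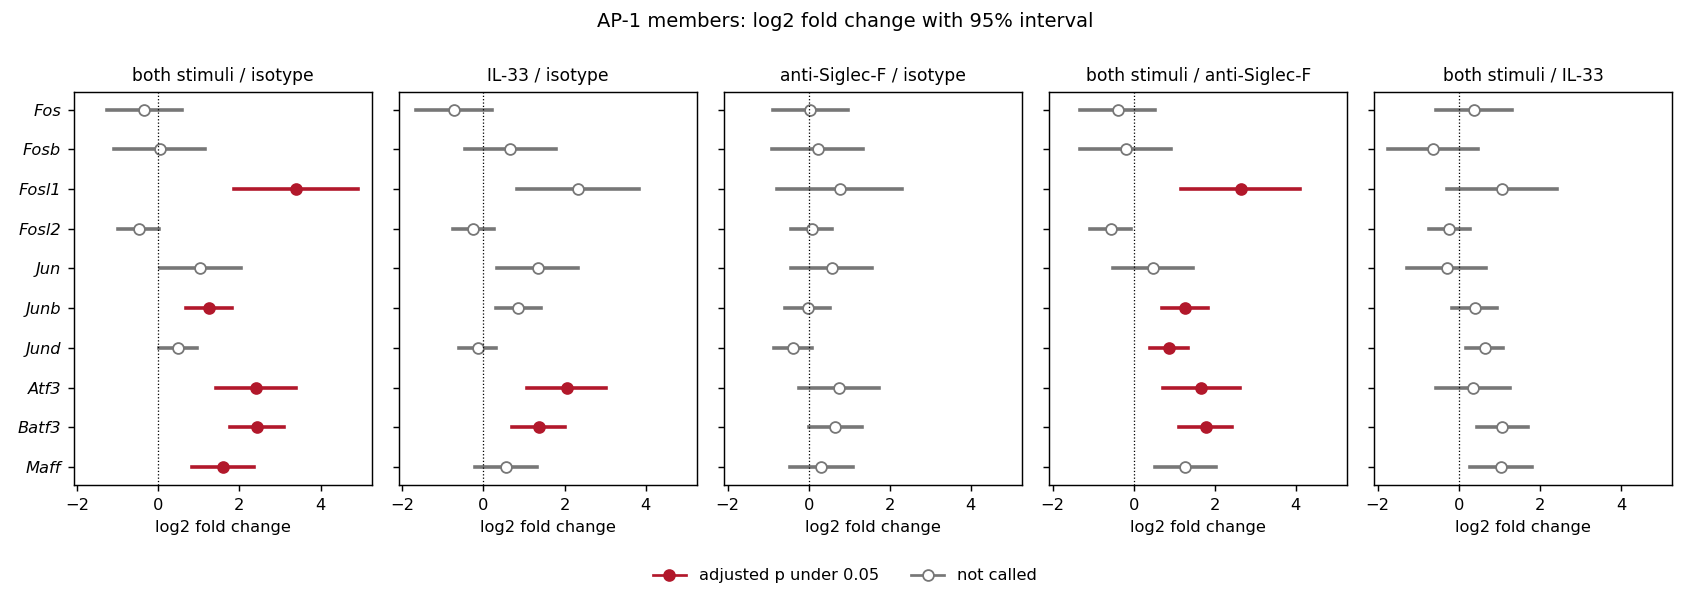
Log2 fold change of each member (horizontal axes) with its 95% interval from edgeR over all 12 libraries, in 5 comparisons; filled red points were called. Fosl1, Junb, Atf3, Batf3 and Maff are filled for both stimuli over isotype, Atf3 and Batf3 for IL-33 over isotype, and none for the antibody over isotype or both stimuli over IL-33.

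Fosl1 (ENSMUSG00000024912, mm10 chromosome 19, 5447703 to 5455945, plus strand) encodes Fra-1, a Fos family protein without the transactivation domain of c-Fos. Its libraries 1, 2 and 3 held 19.1, 3.62 and 21.5 CPM with both stimuli and 9.67, 10.2 and 1.33 CPM with IL-33. They held 3.15, 1.61 and 2.34 CPM with the antibody and 1.44, 1.33 and 1.41 CPM with isotype. Combined libraries 1 and 3 and IL-33 libraries 1 and 2 were high, while combined library 2 was nearer to the antibody group and IL-33 library 3 equalled isotype. The log2 fold change of both stimuli was 3.40 against isotype (SE 0.715, edgeR adjusted p = 0.0102), a 10.5-fold rise, and against the antibody alone 2.64 (SE 0.680, adjusted p = 0.0446). The call against isotype was lost without isotype library 1 or 3 (adjusted p = 0.0515 and 0.0505), and that against the antibody without any 1 antibody library or combined library 3 (adjusted p = 0.117 to 0.186). IL-33 against isotype gave a log2 fold change of 2.33 (SE 0.703, edgeR adjusted p = 0.116), and without IL-33 library 3 it gave 2.86 (adjusted p = 0.0144). Over all alternatives run, the adjusted p of Fosl1 ran from 3.57e-16 to 0.0515 for both stimuli against isotype, from 2.98e-10 to 0.186 for both stimuli against the antibody and from 1.55e-07 to 0.377 for IL-33 against isotype.

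Fosl2 (ENSMUSG00000029135, chromosome 5, 32135801 to 32157842, plus strand), which encodes Fra-2, was the main Fos family message. It stood at 374.6, 241.1 and 188.7 CPM with both stimuli and at 344.8, 232.6 and 371.5 CPM with IL-33. With the antibody it stood at 421.6, 430.1 and 339.2 CPM and with isotype at 368.9, 351.9 and 406.3 CPM. Combined libraries 2 and 3 were below all isotype libraries, and combined library 1 lay inside the isotype range. The log2 fold change of both stimuli against isotype was -0.49 (SE 0.237, edgeR adjusted p = 0.209). It was called lower without combined library 1 (log2 fold change -0.82, edgeR adjusted p = 0.0177). That fit called 19.1% of all genes in either direction against isotype, and 18.6% against the antibody. Without combined libraries 2 and 3 the log2 fold change was 0.05. Its adjusted p against isotype ran from 0.0177 to 0.959 over the 14 alternatives run. Against the antibody alone the value was -0.57 (SE 0.238, adjusted p = 0.174), called only without combined library 1 (adjusted p = 0.0132, and up to 0.986 otherwise).

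Fos (ENSMUSG00000021250, chromosome 12, 85473890 to 85477273, plus strand), the c-Fos gene and a textbook immediate early gene, was not called higher in any stimulated group at 4 h. It stood at 29.4, 14.5 and 18.5 CPM with both stimuli, at 26.2, 14.2 and 7.40 CPM with IL-33, at 38.8, 24.7 and 18.2 CPM with the antibody and at 37.3, 26.1 and 15.9 CPM with isotype. All groups overlapped, library 1 was the highest in each, and for IL-33 each library lay below the isotype library of the same number. The log2 fold change of IL-33 against isotype was -0.73 (SE 0.433, edgeR adjusted p = 0.539), and -0.79 with a replicate block and only these 2 groups (adjusted p = 0.0189); its adjusted p ran from 0.0189 to 0.897 over the 15 alternatives run. Neutrophil markers, 11 genes of which 0 were called in any of the 5 comparisons, had a summed level of 1542, 865 and 1895 CPM with both stimuli, 1553, 1013 and 478 CPM with IL-33, 2230, 1090 and 1119 CPM with the antibody and 2177, 1635 and 980 CPM with isotype. These sums ran in the same order as Fos within the IL-33 and isotype groups and not within the other 2 groups. Retnlg, a secreted protein gene and 1 of these markers, was the second of 8644 genes in likeness to Fos over the 12 libraries (Pearson r = 0.916, after Lmnb1 at 0.917), and is given although Fos was not called. Retnlg held 569, 394 and 572 CPM with both stimuli, 522, 390 and 195 CPM with IL-33, 757, 552 and 521 CPM with the antibody and 853, 911 and 398 CPM with isotype. It thus followed the order of Fos within the IL-33 and antibody groups. The part of these markers in the Fos values was not tested. Fosb (ENSMUSG00000003545, chromosome 7, 19302696 to 19310051, minus strand), another immediate early Fos gene, stayed between 0.93 and 4.09 CPM in all 12 libraries, 11 to 52 counts each, and overlapped in every comparison.

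Junb (ENSMUSG00000052837, chromosome 8, 84974484 to 84978718, minus strand) was the most abundant member in TPM in all 4 groups. It stood at 614.7, 538.9 and 880.9 CPM with both stimuli and at 608.3, 643.2 and 300.2 CPM with IL-33. With the antibody it stood at 272.7, 260.9 and 309.5 CPM and with isotype at 245.0, 323.2 and 287.1 CPM. Every combined library and IL-33 libraries 1 and 2 were above all antibody and isotype libraries, and IL-33 library 3 lay inside the isotype range. Both stimuli raised it by a log2 fold change of 1.25 against isotype (SE 0.263, edgeR adjusted p = 0.0102) and by 1.27 against the antibody (SE 0.263, adjusted p = 0.0181). The call against isotype was lost without isotype library 1 (edgeR adjusted p = 0.0582). That against the antibody was lost without any 1 antibody library or combined library 3 (adjusted p = 0.0549 to 0.0916). Both calls were also lost without combined libraries 2 and 3 together, which leaves 1 library in that group. IL-33 against isotype gave 0.86 (SE 0.261, adjusted p = 0.118), and 1.17 without IL-33 library 3 (adjusted p = 0.0065). The adjusted p of Junb over all alternatives ran from 1.02e-06 to 0.0601 for both stimuli against isotype, from 1.47e-06 to 0.113 for both stimuli against the antibody and from 0.00246 to 0.419 for IL-33 against isotype. The antibody alone gave -0.02 (95% interval -0.58 to 0.54). Prdx2, which overlaps Junb on the other strand in the annotation, reached at most 27.5 CPM, and no strand setting of the counting is given in the sources used here.

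Jund (ENSMUSG00000071076, chromosome 8, 70698949 to 70700616, plus strand) encodes JunD. It stood at 222.9, 297.7 and 226.3 CPM with both stimuli, at 188.9, 180.9 and 111.4 CPM with IL-33, at 152.1, 128.2 and 129.4 CPM with the antibody and at 145.6, 220.9 and 166.4 CPM with isotype. The combined libraries were the highest of all, and isotype library 2 nearly reached the lowest of them. Against the antibody the log2 fold change was 0.87 (SE 0.217, edgeR adjusted p = 0.0405), a call kept without combined library 1 (adjusted p = 0.0177) and lost in the other 5 fits with 1 library left out (0.0784 to 0.167); over all 14 alternatives the adjusted p ran from 0.00242 to 0.294. The fit without combined library 1 called 18.6% of all genes in this comparison. Without combined libraries 2 and 3 together, which leaves 1 library in that group, the call against the antibody was lost as well. The log2 fold change was 0.63 against IL-33 (SE 0.216, edgeR adjusted p = 0.205) and 0.49 against isotype (SE 0.216, adjusted p = 0.168). The antibody alone gave -0.38 (SE 0.216, adjusted p = 1.0). Its interaction was 1.01 (SE 0.305, 95% interval 0.36 to 1.67, unadjusted p = 0.00521, adjusted p = 0.583).

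Jun (ENSMUSG00000052684, chromosome 4, 95049034 to 95052222, minus strand), the c-Jun gene, stood at 46.7, 10.5 and 24.9 CPM with both stimuli and at 40.1, 47.3 and 13.7 CPM with IL-33. It stood at 19.2, 23.7 and 16.5 CPM with the antibody and at 14.6, 13.9 and 11.6 CPM with isotype. IL-33 libraries 1 and 2 were well above all isotype libraries and IL-33 library 3 lay within the isotype range, while combined library 2 was the lowest of all 12 libraries. IL-33 against isotype gave a log2 fold change of 1.33 (SE 0.466, edgeR adjusted p = 0.189), and 1.75 without IL-33 library 3 (adjusted p = 0.0366). Both stimuli against isotype gave 1.04 (SE 0.465, adjusted p = 0.172), and 1.42 without combined library 2 (adjusted p = 0.0487). Over the alternatives run its adjusted p lay between 1.63e-06 and 0.503 for IL-33 against isotype and between 0.000357 and 0.554 for both stimuli against isotype. The antisense gene Junos had 51 counts in all 12 libraries together.

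**Figure D3:**
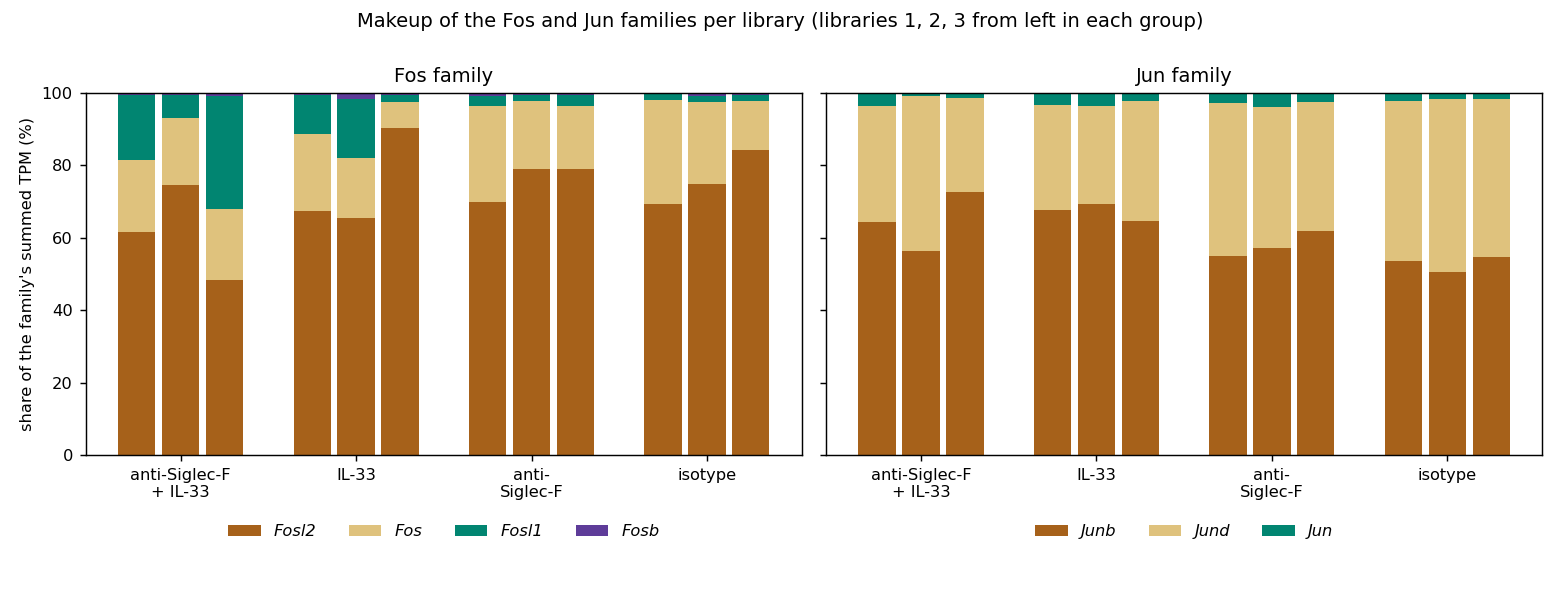
Share of the Fos family (left) and Jun family (right) that each member made up in TPM, in percent of the family's sum, for libraries 1, 2 and 3 of each group. Fosl1 made up 17.9%, 6.36% and 31.3% with both stimuli and 1.53% to 1.66% with isotype, and Junb 64.7% to 69.4% with IL-33 and 50.7% to 54.7% with isotype.

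The makeup of the families per length differed between groups. In the Fos family Fosl1 made up 17.9%, 6.36% and 31.3% of the summed TPM with both stimuli, 10.7%, 16.2% and 1.83% with IL-33, 2.96%, 1.68% and 3.08% with the antibody and 1.53%, 1.60% and 1.66% with isotype. Every library of the other groups lay above the isotype range, IL-33 library 3 and antibody library 2 by little. Fosl2 made up 61.6 ± 13.1% with both stimuli, 74.4 ± 13.7% with IL-33, 76.0 ± 5.29% with the antibody and 76.1 ± 7.59% with isotype (SD, n = 3), which overlapped. In the Jun family Junb made up 67.7%, 69.4% and 64.7% with IL-33, against 53.7%, 50.7% and 54.7% with isotype. These shares did not overlap, IL-33 library 3 included, although its Junb level in CPM lay inside the isotype range. With both stimuli Junb made up 64.4 ± 8.22% and with the antibody 58.1 ± 3.54%. Jund took most of the rest, with 29.7 ± 3.16% for IL-33 and 45.2 ± 2.26% for isotype, and Jun at most 3.76% in any library. No test was run on these shares, which use values tested above.

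Atf3 (ENSMUSG00000026628, chromosome 1, 191170296 to 191218039, minus strand) is a stress-induced factor that in mouse macrophages restrains cytokine genes. It stood at 23.2, 10.0 and 23.6 CPM with both stimuli and at 20.2, 19.1 and 5.17 CPM with IL-33. With the antibody it stood at 7.37, 5.06 and 5.54 CPM, and with isotype at 4.24, 3.62 and 2.82 CPM. All libraries of the other groups lay above all isotype libraries, IL-33 library 3 by less than 1 CPM. The log2 fold change was 2.41 for both stimuli against isotype (SE 0.459, edgeR adjusted p = 0.00573), 2.05 for IL-33 against isotype (SE 0.457, adjusted p = 0.0320) and 1.66 for both stimuli against the antibody (SE 0.442, adjusted p = 0.0499). The first call was kept in each of the 6 fits with 1 library left out, the second in 1 of 6, without IL-33 library 3 (adjusted p = 0.00121), and the last in 1 of 6, without combined library 2 (adjusted p = 0.0273). In the other 5 fits of each, the adjusted p reached 0.164 for IL-33 against isotype, and 0.196 against the antibody. The lowest adjusted p over all alternatives was 4.16e-13, 1.88e-09 and 2.62e-06 in these comparisons, and the highest 0.0379, 0.164 and 0.196. The call against the antibody was also lost without combined libraries 2 and 3 together, which leaves 1 library in that group. Both stimuli against IL-33 gave 0.36 (95% interval -0.56 to 1.27).

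Batf3 (ENSMUSG00000026630, chromosome 1, 191097847 to 191108945, plus strand) is known for the development of cross-presenting dendritic cells in mice and lacks a transactivation domain. It held 59.3, 83.5 and 118.2 CPM with both stimuli and 52.4, 43.8 and 28.1 CPM with IL-33. It held 19.5, 20.2 and 36.6 CPM with the antibody and 17.9, 15.1 and 15.3 CPM with isotype. The combined libraries lay above all others, and all IL-33 and all antibody libraries lay above all isotype libraries, while antibody library 3 was above IL-33 library 3. The log2 fold change was 2.43 for both stimuli against isotype (SE 0.310, edgeR adjusted p = 0.000473), a 5.40-fold rise. It was 1.77 for both stimuli against the antibody (SE 0.302, adjusted p = 0.00647) and 1.36 for IL-33 against isotype (SE 0.303, adjusted p = 0.0317). The first call was kept in each of 6 fits with 1 library left out, the second in 5, all but that without antibody library 1 (adjusted p = 0.0520), and the third only without IL-33 library 3 (adjusted p = 0.0102). Without combined libraries 2 and 3 together the second was lost as well (adjusted p = 0.120), and in the fits that lost the third the adjusted p reached 0.170. Over all alternatives the adjusted p ran from 3.77e-25 to 0.00692, from 2.45e-13 to 0.120 and from 4.37e-08 to 0.170 in the same order. Both stimuli against IL-33 gave 1.07 (SE 0.295, 95% interval 0.44 to 1.70, edgeR adjusted p = 0.191). It was called without combined library 1 (1.27, adjusted p = 0.0163), a fit that keeps combined libraries 2 and 3 and called 13.8% of all genes. Combined library 1 held 59.3 CPM and IL-33 library 1 52.4 CPM. The edgeR adjusted p was 0.000228 with no expression filter and up to 0.559 with 1 library left out. The interaction of Batf3 was 0.41 (95% interval -0.49 to 1.31).

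Batf3 also marks dendritic cells, so markers of other cell types were read beside it. Dendritic cell markers other than Batf3, 9 genes of which 6 passed the filter and 0 were called, summed to 17.3 to 26.8 CPM with both stimuli, 17.8 to 48.5 CPM with IL-33, 20.6 to 26.9 CPM with the antibody and 19.0 to 32.2 CPM with isotype. Monocyte and macrophage markers, 12 genes of which 10 were tested, summed to 1355 to 1730 CPM with both stimuli, 1140 to 1453 CPM with IL-33, 837 to 1054 CPM with the antibody and 740 to 856 CPM with isotype. Of these only Csf1r, the receptor of the growth factor CSF-1, was called. It was higher with both stimuli against isotype (log2 fold change 1.24), with IL-33 against isotype (0.96) and with both stimuli against the antibody (0.71). Csf1r was the largest part of the sum in every library, at 944 to 1066 CPM with both stimuli and 407 to 467 CPM with isotype. The median log2 fold change of the 10 tested markers was 0.33, -0.47 and 0.17 in these 3 comparisons, so the sum does not stand for the whole list. Of 3 tested stroma and endothelium markers Pecam1 (0.73) and Acta2 (1.16) were higher with both stimuli against isotype. The list summed to 492 to 546 CPM with both stimuli and 295 to 336 CPM with isotype. Pecam1 made up most of that, at 473 to 526 CPM with both stimuli and 282 to 330 CPM with isotype. Acta2 stood at 8.25 to 17.0 CPM with both stimuli, and Cdh5, Kdr, Col1a1 and Col1a2 reached at most 1.91 CPM in any library. None of the 11 eosinophil markers tested was called in any comparison, nor was any of the basophil, T, NK, B, erythroid or platelet lists. Csf1r kept its calls against isotype with each library left out and lost that against the antibody without antibody library 1 or 2 or combined library 3 (adjusted p up to 0.135). Pecam1 lost its call without isotype library 1 (adjusted p = 0.0592), and Acta2 without isotype or combined library 2 or 3 (up to 0.114). No dendritic cell, monocyte or stroma marker was at 0 in all 12 libraries. The part of such cells in the members' values was not tested.

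Maff (ENSMUSG00000042622, chromosome 15, 79346621 to 79359076, plus strand) stood at 36.7, 13.9 and 38.8 CPM with both stimuli and at 18.0, 17.4 and 8.17 CPM with IL-33. It stood at 10.4, 12.6 and 14.0 CPM with the antibody and at 9.14, 10.9 and 9.72 CPM with isotype. Combined libraries 1 and 3 were well above any library of the other groups, and combined library 2 lay below IL-33 libraries 1 and 2 and antibody library 3. The log2 fold change was 1.59 for both stimuli against isotype (SE 0.358, edgeR adjusted p = 0.0143), 1.27 against the antibody (SE 0.354, adjusted p = 0.0592) and 1.04 against IL-33 (SE 0.351, adjusted p = 0.202). The first call was lost without isotype library 1 or 3 or combined library 3 (adjusted p = 0.0680, 0.0611 and 0.0525), and the second comparison was called without combined library 2 (1.61, adjusted p = 0.00808). Over the 14 alternatives the adjusted p ran from 6.82e-08 to 0.0680 against isotype, from 7.42e-05 to 0.194 against the antibody and from 0.00522 to 0.999 against IL-33. IL-33 against isotype gave 0.55 (SE 0.356, adjusted p = 0.593).

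Atf3 and Batf3 also lie close together on chromosome 1, with 61350 bases between their annotated ends. The 2 genes between them in the authors' table, Gm38161 and Fam71a, had 38 and 0 counts over all 12 libraries. Junb and Jund share chromosome 8, with 14273867 bases and 341 genes between them.

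**Figure D4:**
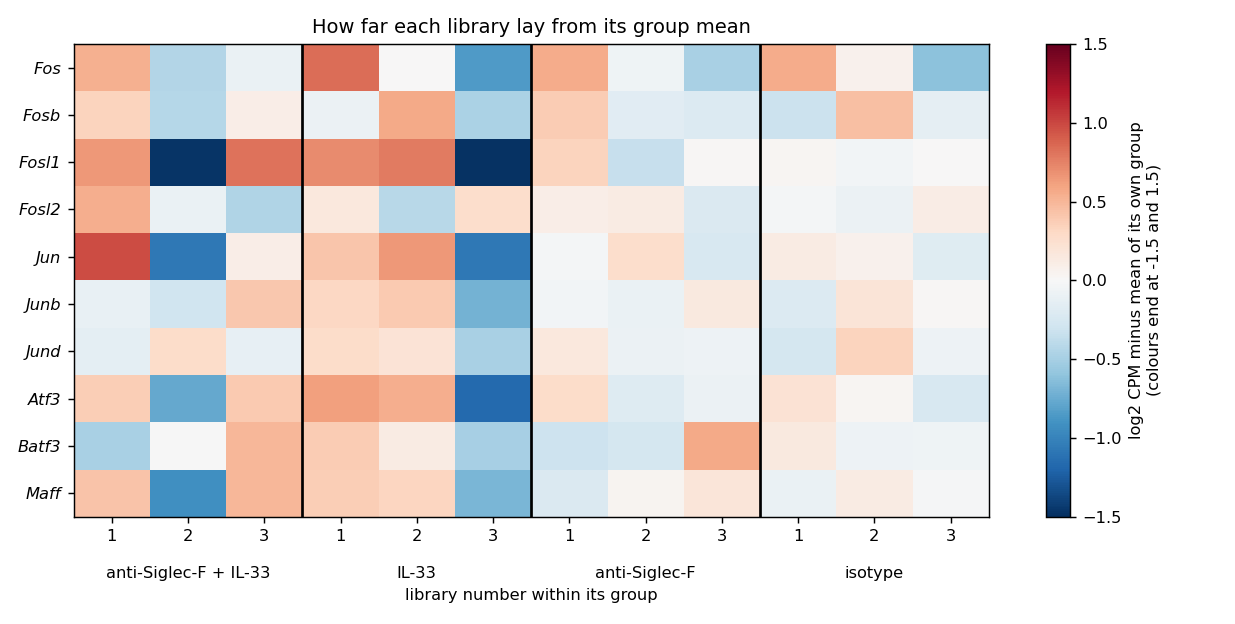
Deviation of each member (rows) in each library (columns) from the mean of its own group, in log2 CPM; blue is below the group mean and red above it. The column of IL-33 library 3 is blue for 9 members and that of combined library 2 for most, with Fosl1 at -1.49 and -1.47.

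**Figure D5:**
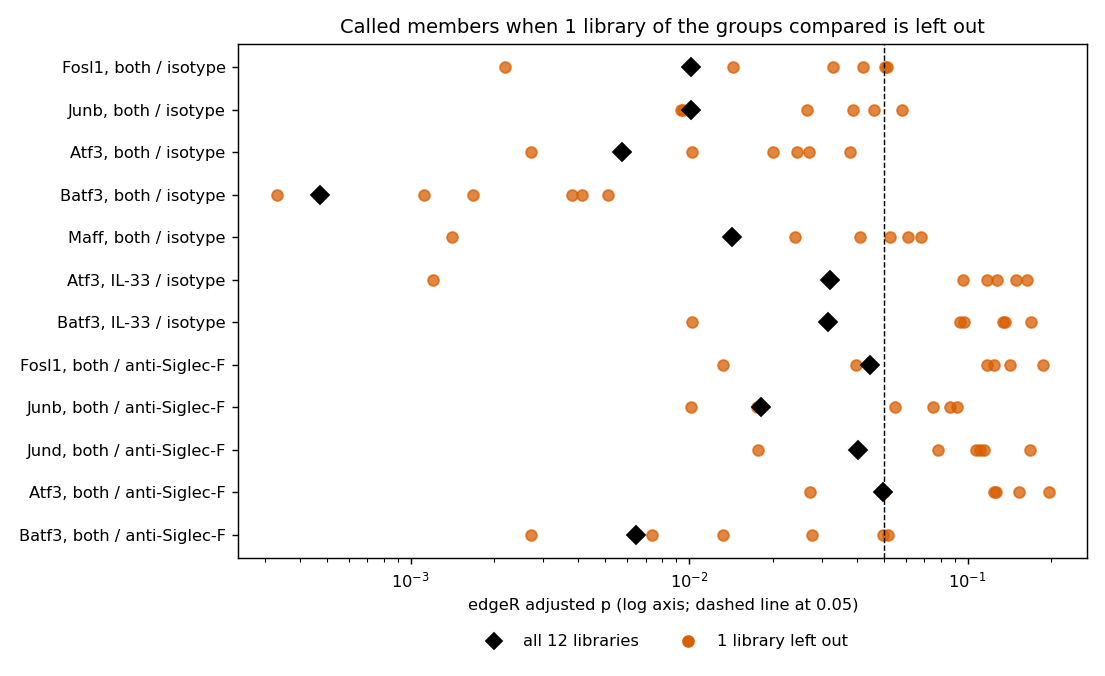
edgeR adjusted p (log axis) of the 12 calls of members, with all 12 libraries (diamonds) and with 1 library of the groups compared left out (circles); the dashed line marks 0.05. All circles of Atf3 and Batf3 for both stimuli over isotype lie left of the line, and 1 circle of each does for IL-33 over isotype.

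Genes around AP-1 were described from lists that, like the members, were chosen with earlier results of these data known. Of 9 tested other AP-1 and Maf genes, 3 rose with both stimuli against isotype: Batf, a close relative of Batf3, at 109 ± 42.8 CPM against 27.3 ± 4.24 CPM, the small Maf gene Mafg at 719 ± 236 against 315 ± 39.4 CPM, and Jdp2, a repressor that pairs with Jun, at 105 ± 22.4 against 59.0 ± 2.13 CPM (SD, n = 3). Their edgeR adjusted p-values were 0.00119, 0.0108 and 0.0237. Batf and Jdp2 also rose against the antibody, and 0 of the 9 were called for IL-33 against isotype. The authors' table annotates 44 tested genes as bZIP factors, members included. Of these 12 rose with both stimuli and 3 with IL-33 against isotype, 7 rose with both stimuli against the antibody, and none was lower. Without the members the counts were 7, 1 and 2 of 34 (20.6%, 2.94% and 5.88%). Over all tested genes 5.47%, 1.46% and 2.7% were higher in the same order, and the other lists here are to be read against these shares. With both stimuli 4.41% of genes were lower against isotype and 1.72% against the antibody. Of 7 CNC factors and Keap1, the partners of small Maf proteins and the brake on Nrf2, 3 rose with both stimuli (Nfe2l1, Nfe2l2 and Keap1, log2 fold changes of 0.72, 0.70 and 0.55) and 1 with IL-33 (Nfe2l1, 0.82). The calls of Batf were kept with each library left out; that of Mafg was lost when isotype library 1 or 3 was left out (adjusted p up to 0.0565), and those of Jdp2, Nfe2l1, Nfe2l2 and Keap1 without each isotype or antibody library that entered the comparison (up to 0.208), among others. Of 5 interferon regulatory and NFAT factors that pair with AP-1, 0 were called in any comparison.

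Counts of upstream genes called with both stimuli against isotype are to be read against 5.47% of all tested genes higher and 4.41% lower. Of 26 MAP kinase cascade genes 2 rose in this comparison and 0 fell (median log2 fold change 0.04, against -0.05 for all tested genes): Map3k8, the kinase Tpl2 that NF-kB signalling releases, with a log2 fold change of 2.49 (SE 0.619, edgeR adjusted p = 0.0228), and Mapkapk2, a kinase downstream of p38, with 1.60 (SE 0.235, adjusted p = 0.00113). Mapkapk2 also rose with IL-33 against isotype (1.13, adjusted p = 0.0218) and with both stimuli against the antibody (1.41, adjusted p = 0.00570); it held 748, 639 and 784 CPM with both stimuli, 761, 450 and 360 CPM with IL-33, 253, 276 and 288 CPM with the antibody and 211, 274 and 233 CPM with isotype. Of 16 regulators of Fos and Jun transcription 1 rose with both stimuli (Elk1, 0.85) and 3 fell (Rps6ka5, by 0.94, Elk3, by 0.94, and Mkl1, the coactivator MRTF-A, by 0.77), and Mkl1 fell by 0.78 against the antibody. The median of these 16 against isotype was -0.22. Of 9 MAP kinase phosphatases, which switch MAP kinases off, 3 rose with both stimuli (Dusp5, Dusp16 and Dusp6, 2.04, 1.80 and 1.10) and 1 fell (Dusp7, by 0.90), with a median of 0.91 over the 9; with IL-33 alone Dusp16 rose (1.82), against 1.46% of all genes. The calls of Mapkapk2 with both stimuli and of Dusp5 and Dusp6 were kept with each library left out. Those of Mapkapk2 with IL-33, Map3k8, Elk1, Elk3, Mkl1, Dusp7 and, with IL-33, Dusp16 were lost without each isotype or antibody library, among others (adjusted p up to 0.160), Rps6ka5 without isotype library 1 or 3 (up to 0.0663), and Dusp16 with both stimuli without isotype library 1 or 2 (up to 0.0759). Dusp1, an early response phosphatase, stood at 62.3 ± 14.5 CPM with IL-33 and 108 ± 18.7 CPM with isotype (log2 fold change -0.79, edgeR adjusted p = 0.0884), and was called lower with a replicate block and only these 2 groups (adjusted p = 0.00445, an alternative added after the data were seen). It was called in 6 of 9 alternatives that left out no single library and in none of the 6 fits that did (adjusted p up to 0.386), nor with RLE scaling, with only the groups compared, or without IL-33 library 3 and combined library 2 together.

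Genes that textbooks name as AP-1 targets were given for comparison. Of 17 tested, 8 rose with both stimuli against isotype (Il6, Il1b, Cxcl2, Il13, Tnf, Il5, Vegfa and Spp1), 5 with IL-33 against isotype and 5 with both stimuli against the antibody (Il6, Il1b, Cxcl2, Il13 and Tnf in both), and none was lower; over all tested genes 5.47%, 1.46% and 2.7% were higher. Their median log2 fold change was 1.18, 0.64 and 0.60 in these 3 comparisons, and that of all tested genes -0.05, -0.01 and -0.04. Il13, a type 2 cytokine gene, held 439, 204 and 568 CPM with both stimuli, 376, 218 and 87.7 CPM with IL-33, 36.2, 26.4 and 41.5 CPM with the antibody and 20.5, 20.9 and 20.8 CPM with isotype. Tnf held 220, 177 and 350 CPM with both stimuli, 190, 133 and 91.0 CPM with IL-33, 48.3, 50.4 and 50.2 CPM with the antibody and 23.6, 21.0 and 20.1 CPM with isotype. IL-33 library 3 was again the lowest of its group for both, and combined library 2 of its own, yet both genes stayed above every antibody and isotype library there. The calls of Il6, Il1b, Cxcl2, Il13, Tnf and Il5 were kept with each library left out, and those of Vegfa and Spp1 were lost without any 1 isotype library or combined library 3, among others (adjusted p up to 0.132). Of the 24 listed targets 17 were tested, and the rest did not pass the filter on low counts. No matrix metalloproteinase gene of the list was called, nor was any tested target beyond those named. Many of the listed genes are also targets of NF-kB.

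The genes whose log2 CPM ran most like that of a called member over the 12 libraries, among 8644 genes whose mean reached 5 CPM, are given as a description. For Atf3 they were Alas1, Srxn1 and Hmox1 (Pearson r = 0.984, 0.984 and 0.983), for Fosl1 Sqstm1, Smox and Ciapin1 (0.977, 0.975 and 0.975) and for Maff Ciapin1, Gde1 and Tmbim1 (0.958, 0.953 and 0.953). For Junb they were Gadd45b, Il10rb and Fas (0.987, 0.977 and 0.974), for Batf3 Bcl2a1b, Bcl2a1d and Ebi3 (0.982, 0.979 and 0.972) and for Jund Anp32b, Hnrnpd and Atn1 (0.933, 0.927 and 0.913). Ciapin1 stood on the lists of both Fosl1 and Maff. Bcl2a1b and Bcl2a1d are near-identical copies between which reads can be split. The points share libraries, groups and depth, so the values hold no evidence beyond the group differences above.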

How the data were processed

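RNA sequencing of 12 libraries, 4 groups of 3, was analysed. The authors deposited a table of raw counts, whole numbers that differ in total between libraries, for 54532 genes, with each gene's name, coordinates and length (another value of the deposited table, in bases). Per the submitters' processing notes, the genome build was mm10 and the tools were featureCounts 1.5.0-p3, STAR 2.6.1d, DESeq2, FastQC 0.11.8 and fastp; for annotation release and strand setting nothing is given in the sources used here. The deposited normalized table was not used.

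Counts were tested with edgeR 4.0.16's quasi-likelihood F test (R 4.3.3), with TMM scaling, filterByExpr by group (14547 genes tested), no block and 1 fit over all 12 libraries. P-values were adjusted (Benjamini-Hochberg) over all genes of a comparison, and called means an adjusted p under 0.05. CPM used TMM-scaled totals; TPM used the deposited lengths. Alternatives were RLE scaling, no filter, DESeq2 1.42.0, limma 3.58.1 voom with quality weights, the replicate block, fewer groups and left-out libraries. The steps were tested on simulated counts with 200 changed genes.

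The 10 members were named in every comparison, with called genes of the lists and, per called member, the 3 genes of highest correlation of log2 CPM. Members and lists were chosen with earlier results of these data known. Library numbers were checked for pairing by correlating deviations from group means: all 3 exceeded 0.1 only for IL-33 with isotype. Promoters came from a RefSeq table (GRCm38.p6).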

Additional observations from a re-analysis of the deposited data

How the results depend on the processing

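Depth limits Fosb (11 to 52 counts per library) and Fosl1 with isotype (18 to 22 counts), and 3 libraries per group limit every comparison. Against isotype, the lowest adjusted p-values of Fosl1, Jun, Atf3 and Batf3, and with both stimuli also of Junb and Maff, came from edgeR with no expression filter. They are far below those of the main fit and are not to be read as its strength. For IL-33 against isotype 2 members were called. There were 5 with no expression filter (1.91% of all genes called), DESeq2 (5.54%) and limma voom (14.4%), 4 without combined libraries 2 and 3 (4.30%), and 6 each with a replicate block fitted to these 2 groups alone (9.08%) and without IL-33 library 3 and combined library 2 together (4.95%), both added after seeing the data. With 1 library left out 0 to 5 were called: 5 without IL-33 library 3 (3.20%) and 0 in the other fits (0.760% to 1.17%). The 5 called for both stimuli against isotype became 2 to 6 with 1 library left out. They were 2 without isotype library 1 (3.38%), 3 without isotype library 3 (3.41%), and 6 without combined library 1 (19.1%) or 2 (8.42%). The 5 called against the antibody became 2 with limma voom (2.91%), 2 without combined libraries 2 and 3 (1.37%), 3 with only these groups (1.81%), and 0 to 5 with 1 library left out: 0 without antibody library 1 (0.816%), and 1 each without antibody library 2 (0.908%) or 3 (1.35%) or combined library 3 (1.39%). Against IL-33 the 0 became 2 with no filter (2.20%), 1 with DESeq2 (3.23%) and 0 to 1 with 1 library left out (1 without combined library 1, 13.8%). Without IL-33 library 3 and combined library 2 together, 6 members were called for both stimuli against isotype (9.90% of genes) and 6 against the antibody (5.21%). With 1 library in a group, as when combined libraries 2 and 3 are left out, that library is assumed to vary like the other groups. The replicate block over all 12 libraries called 2, 0, 5, 0, 4 and 0 members in the 6 comparisons in the order IL-33, antibody and both stimuli against isotype, both stimuli against IL-33 and against the antibody, and interaction; it moved no count by over 1.5 times, and same-numbered libraries of groups other than IL-33 and isotype were not taken as pairs. The antibody against isotype and the interaction called 0 members under each alternative run, and RLE scaling changed no count of members.

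Values that changed sign were all of members not called in that comparison, and the cause was not tested. Without combined libraries 2 and 3, for both stimuli, Fos and Fosl2 had log2 fold changes of 0.21 and 0.048 against isotype, Fosl2 and Jun 0.28 and 0.51 against IL-33, and Fos and Fosb 0.16 and 0.30 against the antibody, while Fosl2 and Batf3 had interactions of 0.20 and -0.11. With limma voom Jund had 0.024 for IL-33 against isotype, Fos -0.030 for both stimuli against IL-33, and Fos and Fosl1 interactions of -0.49 and -0.31. Without IL-33 library 3 and combined library 2 together Jund had 0.054 for IL-33 against isotype and Fosb 0.076 for both stimuli against the antibody. With 1 library left out Jund ran from -0.29 to 0.097 for IL-33 against isotype. For the antibody against isotype Fos ran from -0.29 to 0.39, Fosb from -0.11 to 0.68 and Junb from -0.11 to 0.081. Against isotype, with both stimuli, Fos ran from -0.70 to 0.010 and Fosb from -0.27 to 0.49. For both stimuli against IL-33 Jun ran from -0.93 to 0.087 and Atf3 from -0.071 to 0.66. For both stimuli against the antibody Fosb ran from -0.50 to 0.16 and Jun from -0.17 to 0.85. The interaction ran from -0.032 to 0.90 for Fos and from -0.22 to 0.76 for Fosl1.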
